A study of Homo sapiens with 60 samples.

Results

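The step from 100 to 500 µg/mL of an ethanol extract of Poria Cocos, a fungus whose sclerotium is used in East Asian herbal medicine, was examined in HepG2 cells, an established human liver carcinoma line that keeps many hepatocyte functions. The labels call 500 µg/mL High, 100 µg/mL Medium and 20 µg/mL Low, and all cultures were harvested after 24 h. The comparison used 6 of the 60 libraries of the series, the 3 High and the 3 Medium libraries of the Poria extract, chosen by their titles. The 3 Low libraries of the same extract showed whether a gene had already moved before the top dose, and the 3 vehicle libraries (DMSO, no extract) are given as levels only. The Poria libraries carry the set code 9 and the vehicle libraries the code C1, and the meaning of the code is not given. The sample labels and the series text give different DMSO percentages for the vehicle, and the DMSO content of the extract cultures is not given. For comparison, the same step was read in 2 other ethanol extracts at the same doses and time, Atractylodis (set code 9) and Glycyrrhiza (set code 10), with 3 libraries a dose. All groups share the HepG2 cell line as model, so they lack the other cell types of liver, and nothing in the labels ties a replicate to its own culture. The p-values below may therefore measure only the technical spread between these samples.

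Several pathways recur below. Growth factor and stress signals reach the nucleus through the kinase ERK and switch on immediate early genes such as FOS and EGR1, whose promoters carry CArG boxes read by the serum response factor. Their products in turn induce brakes on the same cascade, the DUSP phosphatases and Sprouty proteins. Electrophiles free the transcription factor NRF2 from its inhibitor KEAP1, which raises glutathione synthesis, quinone reduction and aldo-keto reductases. Hepcidin, made in hepatocytes from HAMP, blocks iron export from other cells and is set by bone morphogenetic protein (BMP) signals through SMAD proteins, of which ID1 and SMAD7 are further targets. Metallothioneins are small cysteine-rich proteins that bind zinc and copper, and the zinc sensor MTF1 drives them through metal response elements.

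The 3 High libraries held 22099749, 20742838 and 25190101 counts, and the 3 Medium libraries 27813146, 25133191 and 23009281. Levels are in CPM, counts scaled to a common library size, with library sizes adjusted by TMM. Mitochondrially encoded transcripts took 22.3%, 20.1% and 19.7% of the counts at High and 19.2%, 21.6% and 17.2% at Medium, so the doses overlapped, and the Low libraries lay at 17.5%, 15.8% and 17.1%. All 15 hepatocyte markers passed the filter on low counts, with a summed level of 69990 to 72597 CPM at High and 66700 to 71452 CPM at Medium. Of the markers of other cells, some had no count and others were expressed. The endothelial genes KDR, TEK, EMCN and ERG, the fibroblast genes DCN and POSTN, the leukocyte genes PTPRC and MS4A1, and the epithelial genes KRT7, CFTR, SFTPC, NKX2-1 and SCGB1A1 had no count in any of the 6 libraries. Summed endothelial markers were 8.06 to 9.18 CPM at High and 6.35 to 6.77 CPM at Medium, fibroblast markers 46.5 to 48.0 against 53.6 to 54.5 CPM, leukocyte markers 1882 to 1982 against 1882 to 1931 CPM, nearly all of it LYZ, and biliary and lung markers 369 to 393 against 346 to 350 CPM. Expressed members included SOX9, at 168 to 186 CPM at Medium and 186 to 208 CPM at High. EPCAM was at 109 to 123 and 105 to 132 CPM, KRT19 at 50.6 to 55.0 and 67.1 to 72.3 CPM. CD68 was at 80.4 to 94.2 and 89.6 to 107 CPM, ACTA2 at 43.0 to 45.4 and 34.7 to 35.2 CPM. PDGFRB was at 7.42 to 9.38 and 10.5 to 11.8 CPM, LYVE1 at 2.97 to 3.68 and 5.44 to 6.87 CPM. The part of these markers in the results was not tested.

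Of 16284 genes tested, 1363 were higher at High than at Medium (8.37% of those tested) and 1009 were lower (6.20%), by the quasi-likelihood test of edgeR at a Benjamini-Hochberg adjusted p of 0.05. Adjusted p-values below come from that test unless DESeq2 is named. The steps were mostly small. The median log2 change was 0.27 among the higher genes and -0.30 among the lower genes, and 54 and 45 of them changed by at least 2-fold. Over all genes tested the median log2 change was 0.0028. When only the 6 libraries compared were fitted, in place of all 54 libraries sharing 1 estimate of spread, 692 genes were higher and 495 lower. With the 9 Poria libraries alone, 522 were higher and 374 lower.

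The plot of gene lists gives the share of each list called in each direction. No list was tested against the shares over all genes tested, 8.37% higher and 6.20% lower. The list with the largest share of higher members was NRF2 targets, followed by immediate early transcription factors, and the lists with the largest share of lower members were mitosis and the ChREBP list. Cytosolic ribosomal proteins (35 tested), nuclear-encoded oxidative phosphorylation (38), mitochondrially encoded genes (13) and cholesterol export and LXR targets (12) had no called member in either direction with edgeR. DESeq2 called none in them either, and at an unadjusted p under 0.05 edgeR had 1, 2, 0 and 1 members, in that order. Their median log2 changes were 0.017, -0.0059, 0.215 and 0.0061. The mitochondrially encoded genes also had a median of 0.224 from Low to Medium, so the missing calls do not show that they stayed level.

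**Figure D1:**
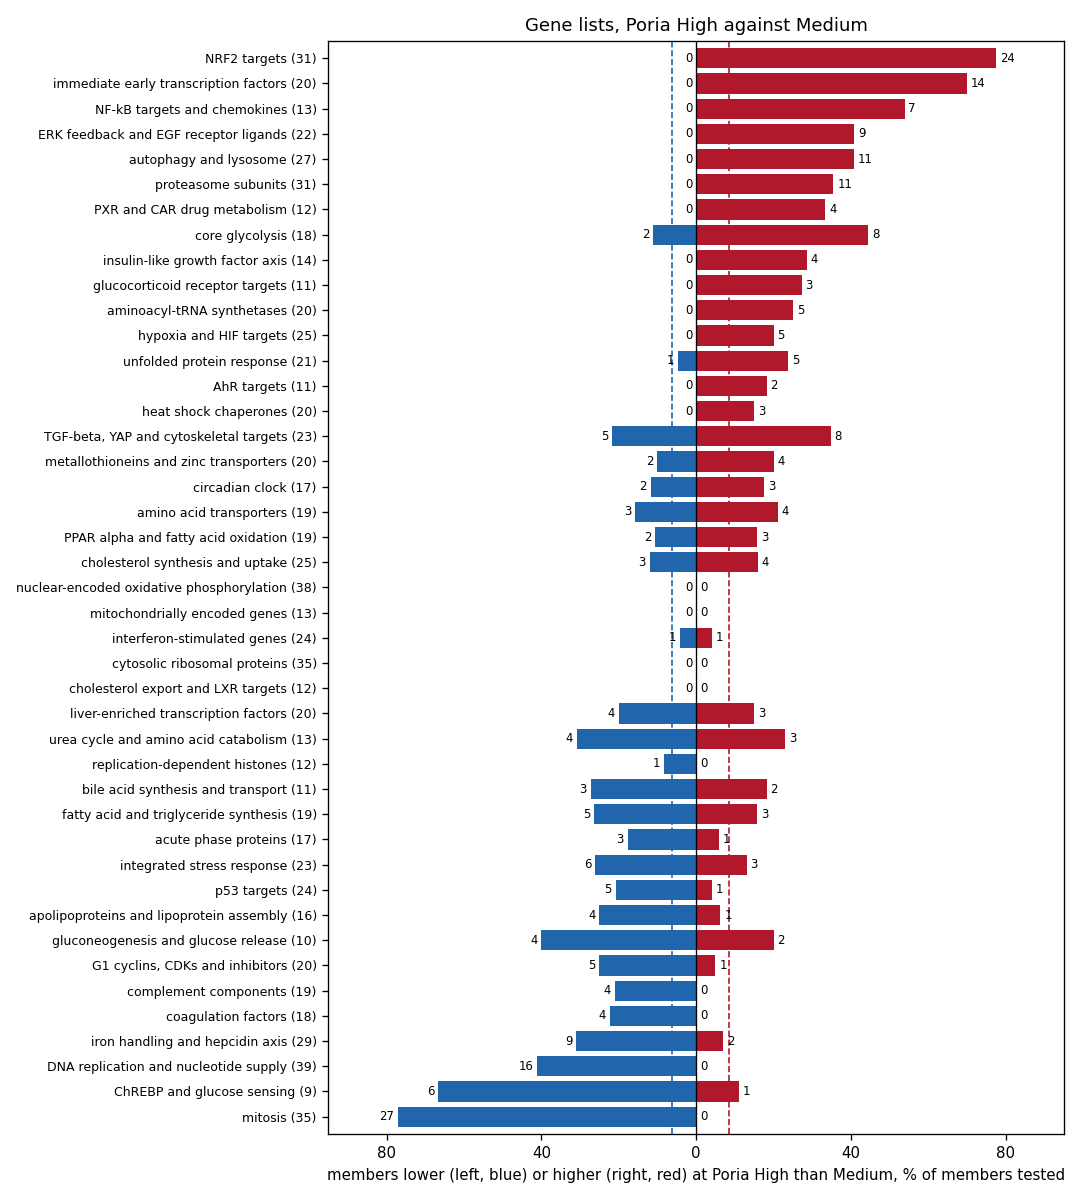
Share of the tested members of each gene list called higher (right, red) or lower (left, blue) at Poria High than at Medium, with the number of called members at the bar end and the number tested in brackets. Dashed lines mark the shares over all genes tested, 8.37% higher and 6.20% lower. NRF2 targets had 24 of 31 members higher and mitosis had 27 of 35 lower.

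Most of the immediate early genes tested rose. Of 20 tested transcription factors of this class, 14 were higher at High than at Medium and none was lower, and the list's median log2 change was 0.52. The same 20 genes had 16 higher and none lower from Low to Medium, a step in which 8.16% of all genes were called higher and 7.29% lower. Both steps use the Medium libraries.

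EGR1, a zinc finger factor of the ERK pathway (chromosome 5, 138465490 to 138469315, GRCh38), stood at 21.1, 19.3 and 17.7 CPM at Low, at 54.9, 54 and 45.7 CPM at Medium and at 159, 121 and 112 CPM at High. The 3 doses did not overlap, and the vehicle libraries (20.6, 22.0 and 23.1 CPM) lay near Low. From Medium to High it rose by 1.34 on the log2 scale (SE 0.11, adjusted p = 1.03e-12). IER3, an early stress gene, was at 98.0, 91.4 and 93.3 CPM at Medium and 186, 144 and 147 CPM at High, again without overlap. JUN, a subunit of AP-1, went from 29, 26.4 and 26.5 to 49.1, 38.8 and 37.7 CPM. In all 3 genes the first High library was the highest, so the spread within High was wider than within Medium. Further AP-1 subunits rose from lower levels: FOS by 1.47 on the log2 scale, FOSB by 1.14, JUNB by 0.65 and FOSL1 by 0.61. EGR3 rose by 1.60, from 0.58 ± 0.06 to 1.78 ± 0.16 CPM (mean ± SD, n = 3). MYC rose by 0.25, from 157, 153 and 166 to 208, 180 and 178 CPM. The members that did not pass included JUND (0.19, adjusted p = 0.234), ATF3 (0.19, adjusted p = 0.416) and SRF itself (0.13, adjusted p = 0.0962).

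The EGR1 promoter is shown for its CArG boxes. The 250 bases before its RefSeq start (GRCh38.p14, chr5:138465229-138465478, plus strand) hold 2 CArG boxes, in capitals, the first 105 to 96 and the second 83 to 74 bases before the start.
EGR1: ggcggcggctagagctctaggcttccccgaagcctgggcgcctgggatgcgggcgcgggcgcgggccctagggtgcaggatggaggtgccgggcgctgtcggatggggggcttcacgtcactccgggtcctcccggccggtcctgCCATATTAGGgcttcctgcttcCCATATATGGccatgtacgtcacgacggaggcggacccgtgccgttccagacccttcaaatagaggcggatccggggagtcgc
A CArG box lay in this window in 3 of the 15 tested list members with a RefSeq entry, and in 1.44% of all 27305 genes with one. Of the 10 members that rose and had an entry, 1 held a box.

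**Figure D2:**
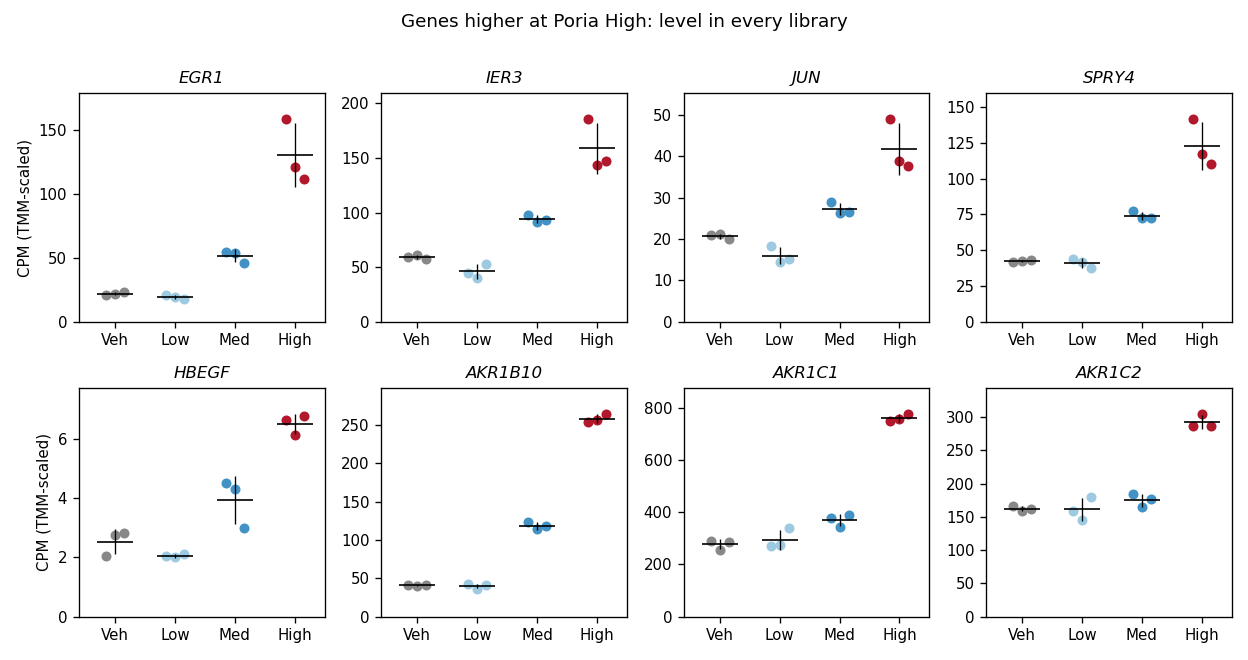
Level in CPM of 8 genes in each of the 3 libraries of vehicle, Low, Medium and High (dots), with the group mean (horizontal line) and SD (vertical line). EGR1, IER3, JUN, SPRY4 and AKR1B10 rose at both steps, whereas AKR1C2 overlapped Low at Medium and stood at 286 to 305 CPM at High.

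Some brakes and ligands of the ERK cascade rose as well. Of 22 tested members of that list 9 were higher and none was lower, with a median log2 change of 0.31. SPRY4, a Sprouty protein that dampens receptor signalling, went from 77.3, 72.4 and 72.4 CPM at Medium to 142, 117 and 110 CPM at High, a rise of 0.73 on the log2 scale (SE 0.07, adjusted p = 2.67e-11). HBEGF, a ligand of the EGF receptor, was at 4.52, 4.32 and 3.01 CPM at Medium and 6.65, 6.14 and 6.79 CPM at High, without overlap. DUSP5, a nuclear ERK phosphatase, rose by 0.74 from 2.78 ± 0.54 to 4.67 ± 0.26 CPM. DUSP1 rose by 0.47, DUSP6 by 0.42 and the receptor EGFR by 0.39.

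Among all genes with a level of at least 2 CPM at either dose and no overlap between the doses, the 12 largest rises included 3 immediate early genes, EGR1, FOS and FOSB. All 12 were also called higher from Low to Medium. IGFBP3, a binding protein of insulin-like growth factors, rose by 1.58 on the log2 scale from 1.54, 4.62 and 3.97 to 5.39, 12.9 and 11.6 CPM, with the first library of each dose the lowest. PHLDA2, an imprinted growth regulator, rose by 1.43 (SE 0.13) from 6.32, 6.93 and 6.15 to 21.5, 14.2 and 16.5 CPM. CYP1A1, a monooxygenase induced through the aryl hydrocarbon receptor, rose by 1.13 from 24.4, 16.2 and 17.7 to 55.1, 35.3 and 38.2 CPM. Only NQO1 of the other 10 tested AhR list members was called with it, higher by 0.52. PLCH2, a phospholipase C, rose by 1.31 and ASB2, a ubiquitin ligase subunit, by 1.17. LINC01484 (1.66) and LINC03033 (1.47) are long non-coding RNAs, and TMC8 (1.12) is a membrane protein.

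Most of the NRF2 targets tested rose. Of 31 tested, 24 were higher at High than at Medium and none was lower, with a median log2 change of 0.34. AKR1B10, an aldo-keto reductase, was at 42.2, 36.4 and 41.0 CPM at Low, at 124, 114 and 118 CPM at Medium and at 254, 257 and 265 CPM at High. The doses did not overlap and the spread within each was narrow, and the step from Medium to High was 1.12 on the log2 scale (SE 0.07, adjusted p = 3.52e-17). GCLC and GCLM, the subunits of the enzyme that limits glutathione synthesis, rose by 0.77 and 0.81. GCLC went from 101, 96.5 and 101 to 169, 168 and 171 CPM. SQSTM1, an autophagy receptor that also binds KEAP1, went from 292, 272 and 267 to 551, 471 and 508 CPM, a rise of 0.88. NQO1, the quinone reductase, rose from 503, 439 and 465 to 684, 639 and 692 CPM. HMOX1, heme oxygenase, had been called lower from Low to Medium (-0.23, adjusted p = 0.00395) and rose by 0.34 from Medium to High, from 56.6, 56.7 and 57.1 to 81.0, 63.8 and 70.4 CPM.

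AKR1C1 and AKR1C2 are neighbouring and nearly identical reductases on chromosome 10. Both were called higher from Medium to High, and only AKR1C1 was called from Low to Medium. AKR1C1 was at 272, 273 and 339 CPM at Low, 378, 343 and 388 at Medium and 751, 757 and 779 at High. Its step from Low to Medium was 0.33 and its step from Medium to High 1.04. AKR1C2 was at 159, 145 and 179 CPM at Low, 184, 164 and 176 at Medium and 286, 305 and 286 at High. Low and Medium overlapped, with a difference of 0.12 (95% interval 0.01 to 0.23), and High lay above both. Reads shared between these copies are divided by the counting model, so the split between them is uncertain. A difference in dose profile between these genes was not tested.

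Parts of the protein degradation machinery rose by small amounts. Of 31 tested proteasome subunits 11 were higher and none was lower, with a median of 0.15, and PSMC4, an ATPase of the regulatory cap, rose most, by 0.29. With only the 6 libraries compared, 6 subunits passed. Of 27 autophagy and lysosome genes 11 were higher and none was lower. Besides SQSTM1 these included the cathepsins CTSL (0.39) and CTSB (0.36) and the factor TFE3 (0.31). NF-kB targets had 7 of 13 members higher and none lower, led by the cytokine LIF at 0.78, which went from 14.0, 15.4 and 14.9 to 27.2, 24.7 and 24.2 CPM. RELB, a subunit of NF-kB, rose by 0.56 and the chemokine CCL20 by 0.50.

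Among called genes with a level of at least 2 CPM at either dose and no overlap between the doses, the largest fall was in HAMP, the gene of hepcidin (chromosome 19, 35280716 to 35285143, GRCh38). It stood at 5.23, 3.30 and 5.19 CPM at Low, at 2.39, 2.22 and 2.14 CPM at Medium and at 0.856, 0.892 and 0.342 CPM at High. The 3 doses did not overlap, and the vehicle libraries were at 5.41, 6.54 and 6.24 CPM. From Medium to High HAMP fell by 1.73 on the log2 scale (SE 0.27, adjusted p = 4.87e-06), after a fall of 1.02 from Low to Medium. The level at High is low, and its libraries differ more in proportion than those at Medium.

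Several other genes of the hepcidin axis fell at the top dose, and ID1 and TMPRSS6 had no call from Low to Medium. ID1, a BMP target that blocks helix-loop-helix factors, was at 77.2, 75.6 and 95.5 CPM at Low, 91.7, 73.2 and 86.2 at Medium and 59.0, 53.8 and 47.7 at High. Low and Medium overlapped and every High library lay below them, and the fall from Medium to High was -0.65 (SE 0.10, adjusted p = 4.88e-06). TMPRSS6, the protease that restrains BMP signalling in hepatocytes, was at 3.56, 3.68 and 3.97 CPM at Medium and 2.37, 2.15 and 2.26 at High, a change of -0.72. SMAD7, an inhibitor of SMAD signalling, went from 5.91, 5.99 and 6.37 to 4.13, 4.09 and 4.23 CPM, a change of -0.55 after one of -0.31 from Low to Medium. ID3 changed by -0.45, and this rested in part on the third High library at 7.00 CPM against 12.1 and 12.3 in the others. The receptors and SMADs upstream were not called: BMPR1A (-0.02), BMPR2 (0.08), ACVR1 (0.14), SMAD1 (-0.01), SMAD4 (0.0044) and SMAD5 (0.05).

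Iron uptake and storage genes moved in opposite directions. TFRC, the transferrin receptor, was at 1459, 1616 and 1343 CPM at Low, at 1577, 1594 and 1683 CPM at Medium and at 1147, 1127 and 1246 CPM at High. Only High stood apart, by -0.46 from Medium (SE 0.06, adjusted p = 5.58e-08). SLC11A2, an iron importer, went from 74.6, 83.1 and 80.1 to 57.0, 65.7 and 61.5 CPM, and TFR2 fell by 0.26. The ferritin chains rose: FTH1 by 0.40, from 2159, 2084 and 1866 to 3076, 2559 and 2447 CPM, and FTL by 0.39, from 7889, 9554 and 7792 to 10879, 11142 and 11028 CPM. Both ferritin genes also stand in the NRF2 list and have many processed copies in the genome. The iron exporter SLC40A1 did not pass (0.02, adjusted p = 0.868), nor did the iron sensors ACO1 (0.05, adjusted p = 0.516) and IREB2 (-0.0045, adjusted p = 0.974). In all, 2 of 29 tested members of the list were higher and 9 lower.

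**Figure D3:**
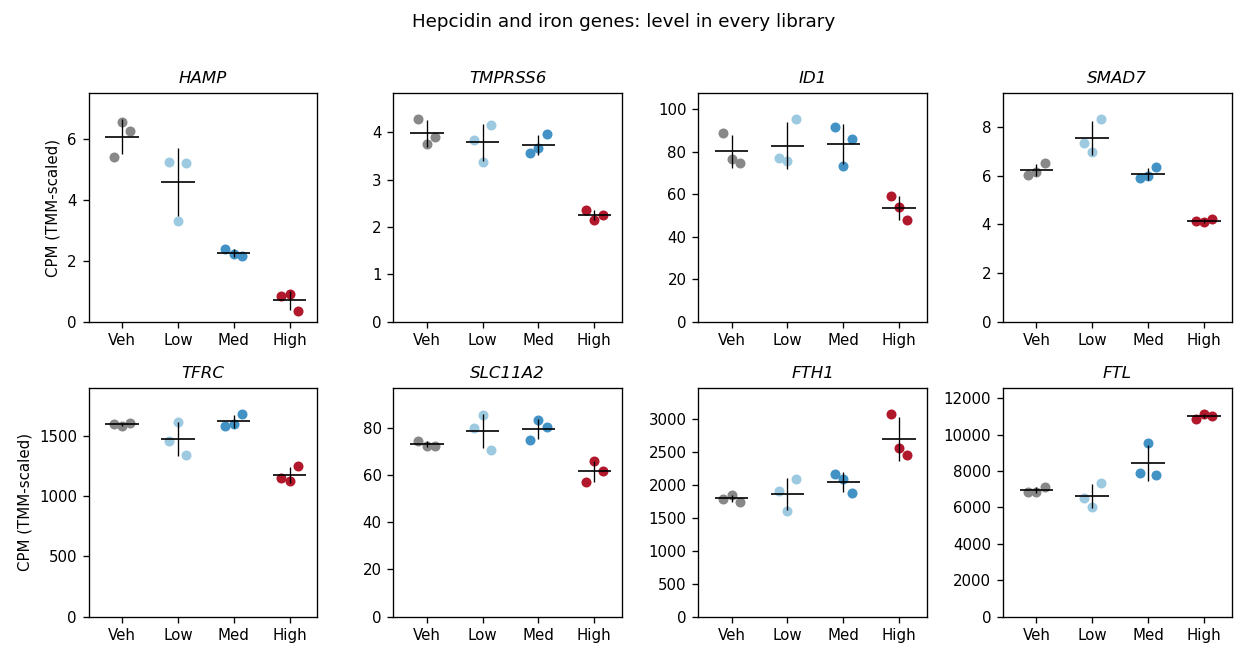
Level in CPM of 8 hepcidin and iron genes in each of the 3 libraries of vehicle, Low, Medium and High (dots), with the group mean (horizontal line) and SD (vertical line). HAMP fell at each step, TMPRSS6, ID1, TFRC and SLC11A2 were lower at High with no called change from Low to Medium, and the ferritin genes FTH1 and FTL were highest at High.

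The HAMP promoter carries the BMP response element close to its start. The 250 bases before its RefSeq start (GRCh38.p14, chr19:35282278-35282527, plus strand) hold, in capitals, the letters GGCGCC of that element 105 to 100 bases before the start and a STAT-type site, TTCNNNGAA, 93 to 85 bases before it.
HAMP: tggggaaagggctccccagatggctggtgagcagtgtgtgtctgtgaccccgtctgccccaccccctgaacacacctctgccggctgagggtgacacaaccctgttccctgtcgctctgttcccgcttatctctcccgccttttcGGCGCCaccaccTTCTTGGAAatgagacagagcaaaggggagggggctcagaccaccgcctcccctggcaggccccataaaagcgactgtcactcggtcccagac
The letters GGCGCC, which read the same on both strands, lay in the window of 11 of the 25 tested iron list members with a RefSeq entry, 3 of them among the 7 that fell, and in 19% of all genes. The site TTCNNNGAA lay in 8.09% of all genes.

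The other 11 of the 12 largest falls by the same rule had mean levels of 2.32 to 15.0 CPM at Medium. MAB21L4 changed by -1.11, CLDN19, a tight junction protein, by -1.09, PLIN1, a lipid droplet protein, by -0.99, SKIDA1 by -0.96, UPK3A by -0.91 and TMPO-AS1, an antisense transcript, by -0.92. Strand handling in the counting is not given, so reads of TMPO-AS1 and its partner gene cannot be told apart. MAP2K6, the kinase that activates p38, went from 10.9, 10.4 and 10.3 CPM at Low to 6.68, 7.27 and 7.25 at Medium and 3.78, 3.88 and 3.88 at High, a fall of 0.87 (SE 0.09, adjusted p = 1.42e-09). SYNE3, a nuclear envelope protein, went from 15.2, 14.2 and 15.6 to 9.57, 7.66 and 7.98 CPM. EXOC3L4 (-0.83), OLMALINC (-0.80) and RHBDL2 (-0.79), a rhomboid protease, completed the 12, of which 9 were also called lower from Low to Medium.

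Many genes of cell division fell by small amounts. Of 35 tested mitosis genes 27 were lower at High than at Medium and none was higher, with a median log2 change of -0.21. From Low to Medium 10 of them had been called lower. BIRC5, a passenger protein of the mitotic spindle, went from 98.3, 94.7 and 97.8 to 69.7, 73.6 and 73.0 CPM, a change of -0.43 (SE 0.07, adjusted p = 3.55e-05). TOP2A, the topoisomerase of dividing cells, went from 443, 454 and 451 to 325, 371 and 367 CPM, and CCNB2, a mitotic cyclin, from 55.6, 58.0 and 59.5 to 42.7, 47.9 and 47.9 CPM. In each of these 3 genes the doses did not overlap. HMMR (-0.43), CENPA (-0.38) and NUSAP1 (-0.37) were the others with the largest changes. Of 39 DNA replication genes 16 were lower and none was higher, with a median of -0.18, and MCM2, part of the replicative helicase, went from 110, 93.8 and 105 to 87.4, 78.5 and 81.4 CPM. With only the 6 libraries compared, 18 mitosis and 8 replication genes passed. With 1 High or Medium library left out 20 to 23 and 10 to 19 passed, the 10 without Medium replicate 1. In bulk samples, fewer dividing cells and less of these RNAs per cell cannot be told apart.

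The promoter of CCNB2 shows the elements that many genes of this list share. The 250 bases before its RefSeq start (GRCh38.p14, chr15:59104896-59105145, plus strand) hold, in capitals, 4 CCAAT boxes, the nearest 54 to 50 bases before the start, and 1 cell cycle homology region, TTTGAA, 29 to 24 bases before it.
CCNB2: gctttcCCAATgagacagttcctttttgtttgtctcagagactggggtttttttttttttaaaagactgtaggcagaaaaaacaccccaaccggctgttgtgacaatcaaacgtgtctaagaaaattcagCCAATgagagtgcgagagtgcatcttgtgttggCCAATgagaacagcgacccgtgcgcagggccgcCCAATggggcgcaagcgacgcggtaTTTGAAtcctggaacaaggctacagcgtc
On either strand, CCAAT lay in the window of 26 of the 29 tested mitosis genes with a RefSeq entry, against 37.0% of all genes, and TTTGAA in 17 of the 29, against 16.1% of all genes. Of the 21 that fell and had an entry, 19 held CCAAT and 13 held TTTGAA.

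Several regulators and enzymes of hepatocytes fell. CEBPA, a liver-enriched factor, went from 81.0, 75.9 and 93.5 CPM at Low to 65.4, 57.3 and 62.7 at Medium and 39.2, 38.3 and 37.1 at High, a fall of 0.70 from Medium to High (SE 0.07, adjusted p = 8.56e-10). NR1H4, the bile acid receptor, fell by 0.58, from 30.9, 27.9 and 29.9 to 19.7, 19 and 20.7 CPM. AKR1D1, a reductase of bile acid synthesis, went from 18.4, 19.5 and 18.6 to 10.8, 10.9 and 11.8 CPM. The doses did not overlap in these 3 genes. The bile acid list as a whole had 3 of 11 members lower and 2 higher, among them SLC51B, a subunit of a bile acid exporter, by 0.42 (adjusted p = 0.0025). The call of SLC51B was lost without Medium replicate 1 (adjusted p = 0.0544), where no member was higher, and the higher count was 4 with the replicate block and 1 with only the groups compared, with DESeq2, or without High replicate 3, Medium replicate 2 or 3 or Low replicate 2. Of 20 liver-enriched factors 4 were lower and 3 higher, and HNF4A, at 330, 323 and 322 CPM at Medium and 344, 338 and 336 CPM at High, was not among those called. Secreted liver proteins were mixed. Complement had 4 of 19 lower, led by C8A (-0.52), and coagulation factors 4 of 18 lower, with F7 at -0.47, and neither list had a higher member. With only the groups compared 2 passed in each. Over all genes tested 8.37% were higher and 6.20% lower. Acute phase proteins had 1 of 17 higher and 3 lower, and apolipoproteins 1 of 16 higher and 4 lower. With only the groups compared those 2 lists had 0 higher, and 1 and 2 lower. APOC3 went from 48.8, 58.3 and 52.2 to 34.7, 38.5 and 37.1 CPM, and it was 1 of the 3 hepatocyte markers called, all lower. The others lost their call when 1 library was left out, TF without High replicate 1 (adjusted p = 0.291) or Medium replicate 1 (0.0588), 2 (0.0842) or 3 (0.117), and FGB without High replicate 1 (0.0622) or Medium replicate 2 (0.118). With only the groups compared 1 marker was lower, and with the replicate block 1 was called higher. Of the other markers, APOB was at 20358, 21415 and 20923 CPM at Medium and 23217, 22391 and 23570 CPM at High. AMBP was at 823, 829 and 831 CPM at Medium and 905, 886 and 984 CPM at High. Both lay higher at High without overlap, and neither was called in the fit of all 54 libraries.

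Glucose and lipid genes were mixed. Of 9 genes of the ChREBP list 6 were lower and 1 higher, with a median of -0.27. PKLR, the liver pyruvate kinase, changed by -0.35 and KHK, fructokinase, by -0.29, and the higher member was GCKR (0.39). GPAM, the acyltransferase that opens triglyceride synthesis, fell by 0.59, from 157, 123 and 140 to 100, 87.9 and 91.8 CPM. The lipid droplet protein PLIN2 rose by 0.56. Of 25 hypoxia genes 5 were higher and none lower: EGLN3, a prolyl hydroxylase, by 1.21, ADM, adrenomedullin, by 0.89, HIF1A by 0.43, EGLN1 by 0.24 and VEGFA by 0.22. The list count was 9 with a replicate block, 3 with only the groups compared, and between 3 and 7 when 1 High or Medium library was left out, the 3 without High replicate 2 or Medium replicate 1. ADM was at 6.61, 6.63 and 7.07 CPM at Medium and 11.6, 14.3 and 11.7 at High. In EGLN3 the doses overlapped, at 0.771, 1.67 and 1.44 against 1.56, 4.04 and 3.24 CPM. EGLN1 lost its call in turn without High replicate 2 (adjusted p = 0.119), High replicate 3 (0.258), Medium replicate 1 (0.238) or Medium replicate 2 (0.0984).

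Amino acid stress genes split. In the integrated stress response list 3 of 23 were higher and 6 lower. GDF15, a stress cytokine, rose from 298, 234 and 230 to 473, 364 and 359 CPM, and PPP1R15A rose by 0.51. NUPR1, a stress-induced nuclear protein, went from 9.22, 9.41 and 7.99 to 5.49, 4.93 and 5.08 CPM, a change of -0.78. ASNS, asparagine synthetase, had risen by 0.57 from Low to Medium and changed by -0.29 from Medium to High, from 58.2, 53.1 and 55.5 to 43.1, 43.1 and 50.2 CPM. ATF4, the factor that drives the list, changed by -0.19 and the serine synthesis gene PSAT1 by -0.28. Of the other lists, 5 of 24 p53 targets were lower and 1 was higher, beside 6.20% and 8.37% over all genes tested. The lower count was 8 without High replicate 1, and 2 without High replicate 2 or Medium replicate 1. It was 3 without Medium replicate 3 or Low replicate 1, with RLE scaling, or with only the groups compared.

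Genes that moved at the top dose only were few under a strict definition. It asked for a call and a log2 change of at least 0.6 from Medium to High, a call the same way from Low to High, no call from Low to Medium, and a 95% interval of the Low to Medium change within 0.3 on either side of 0. It held for 3 higher and 5 lower genes. Of the 177 higher and 142 lower genes called with a change of at least 0.6, 70 and 85 met every condition but the interval. A missing call from Low to Medium leaves room for a small step there. The higher genes were AKR1C2 (0.74), BAIAP3 (0.65) and ZNF322P1, and the lower genes were TMPRSS6 (-0.72), SLC6A4 (-0.67), KIF7 (-0.67), TMEM141 (-0.65) and ID1 (-0.65). BAIAP3, a regulator of vesicle release, was at 3.6, 3.17 and 3.32 CPM at Medium and 5.04, 5.56 and 5.25 CPM at High. SLC6A4, the serotonin transporter, was at 11.7, 12.5 and 12.7 CPM at Medium and 8.31, 6.98 and 7.86 CPM at High. Its High libraries lay below all Medium and all Low libraries. KIF7, a kinesin of Hedgehog signalling, went from 9.66, 7.79 and 8.47 to 5.94, 4.67 and 5.72 CPM, and TMEM141 from 32.6, 27.6 and 27.8 to 15.9, 22.2 and 18.3 CPM. ZNF322P1, a pseudogene, had no count at Low, at Medium or in the second High library, and 1.21 and 0.683 CPM in the other High libraries. With every Low and Medium library at 0, its interval for that step has no width, so the interval condition says nothing about this gene. With the replicate block its call from Medium to High was lost (adjusted p = 0.0648).

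**Figure D4:**
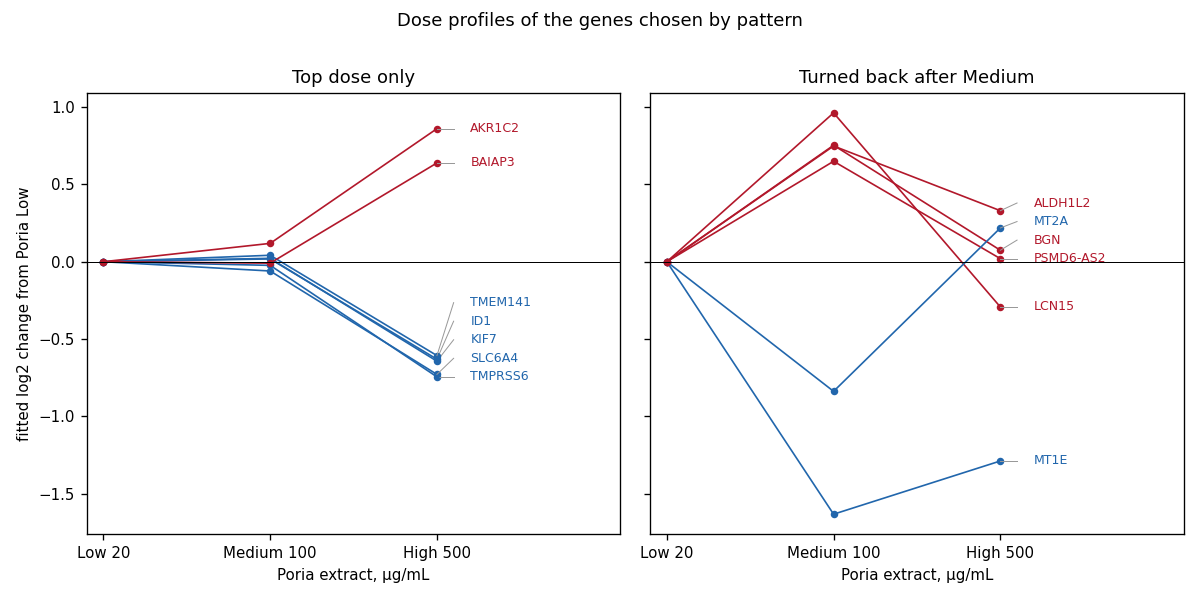
Fitted log2 change from Poria Low at Medium and High for the genes of the top-dose-only pattern (left) and of the pattern that turned back after Medium (right), with 1 line a gene. The plot leaves out 4 of the 17 pattern genes, whose mean stayed under 1 CPM at all 3 doses. AKR1C2 and BAIAP3 rose at the last step, MT2A at High overlapped Low, and MT1E at High stayed below Low.

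These small counts depended on single libraries. The higher count was 5 without High replicate 2 and 1 without Medium replicate 1, Medium replicate 2, Low replicate 1 or Low replicate 3. The lower count was 3 without Medium replicate 1, 2 or 3 or Low replicate 3. AKR1C2 stayed in the definition in all of these except without Low replicate 3, and SLC6A4 stayed in all of them. With the replicate number as a block for the Poria High and Medium libraries the lower count was 1, SLC6A4. Without the interval condition the counts were 70 and 85.

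Genes that turned back after Medium were called in both steps in opposite directions, by at least 0.3 each. There were 5 that rose and came back and 4 that fell and came back. Both steps share the Medium libraries, so an error in those 3 libraries would give this pattern, and the counts are a description. Those that rose and came back were ALDH1L2, LCN15, BGN, PSMD6-AS2 and FUT1. ALDH1L2, a mitochondrial folate enzyme, was at 4.42, 4.69 and 4.03 CPM at Low, 7.12, 7.83 and 7.16 at Medium and 4.89, 6.30 and 5.38 at High. Medium stood above both other doses without overlap. The return was partial, as High stayed above Low by 0.33 on the log2 scale (95% interval 0.12 to 0.54, adjusted p = 0.0111). With the 9 Poria libraries alone the call of ALDH1L2 from Medium to High was lost (adjusted p = 0.0504). LCN15, a lipocalin, went from 1.08, 0.774 and 0.747 to 1.73, 1.80 and 1.57 and back to 0.755, 0.840 and 0.555 CPM. BGN, biglycan, lost its call from Medium to High under the replicate block (adjusted p = 0.0579), with only the groups compared (0.116), with DESeq2 (0.0926), and without High replicate 2 (0.133), High replicate 3 (0.235), Medium replicate 1 (0.0770), Medium replicate 2 (0.0957) or Medium replicate 3 (0.0996). PSMD6-AS2 was at 1.12, 1.26 and 1.04 CPM at Low, 2.06, 1.24 and 2.05 at Medium and 0.957, 1.31 and 1.20 at High. Its second Medium library lay within both other doses. With only the groups compared its call from Medium to High was lost (adjusted p = 0.153). It also left the pattern with DESeq2, and without High replicate 1 or 3, Medium replicate 1 or 3 or Low replicate 3. Its reads, like those of TMPO-AS1, cannot be told from those of the other strand. FUT1 stayed at or below 0.262 CPM in all 9 Poria libraries.

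The count of genes that rose and came back was 3 without High replicate 3 or Low replicate 3, and the count that fell and came back was 7 without Medium replicate 1 or Medium replicate 2. Of those that fell and came back, GLIPR1-AS1 and ENSG00000256116 are antisense transcripts at or below 0.577 CPM, and the other two are metallothioneins. GLIPR1-AS1 lost its call from Medium to High with no filter (adjusted p = 0.0591) and without High replicate 1 (0.0503), High replicate 2 (0.0793), Medium replicate 2 (0.119) or Medium replicate 3 (0.0789), and ENSG00000256116 without Medium replicate 3 (0.07).

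MT2A, the most abundant metallothionein here (chromosome 16, 56608199 to 56609497, GRCh38), was at 386, 369 and 453 CPM at Low, at 219, 221 and 236 CPM at Medium and at 538, 447 and 420 CPM at High. Low and High overlapped and Medium lay below both. The step from Low to Medium was -0.84 (SE 0.13, adjusted p = 4.5e-06) and that from Medium to High 1.06 (SE 0.13, adjusted p = 5.52e-08), and High against Low was not called (0.22, adjusted p = 0.186). MT1E, on the same chromosome, fell from 176, 208 and 233 to 62.4, 65.7 and 71.0 CPM and rose to 88.4, 80.4 and 83.7 CPM. Its return of 0.34 left it 1.29 below Low on the log2 scale, and without Medium replicate 1 the call was lost (adjusted p = 0.0594).

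The other metallothioneins fell from Low to Medium and stayed down at High. MT1F went from 35.0, 37.8 and 43.1 CPM at Low to 6.06, 4.92 and 7.60 at Medium and 6.20, 5.09 and 5.98 at High. Its step from Low to Medium was -2.64 and that from Medium to High -0.10 (95% interval -0.51 to 0.31, adjusted p = 0.823). MT1G went from 86.8, 91.9 and 112 to 16.1, 15.4 and 17.2 and then to 22.0, 16.6 and 17.4 CPM. MT1X went from 27.3, 32.3 and 37.3 to 10.4, 11.9 and 11.5 and then to 13.7, 13.2 and 13.4 CPM, where the last step of 0.25 did not pass (adjusted p = 0.181) although the doses did not overlap. SLC30A1, the zinc exporter that MTF1 also drives, followed the same course, from 91.8, 101 and 89.2 to 57.9, 58.4 and 67.0 and then to 54.5, 61.3 and 62.8 CPM. MTF1 itself was not called at either step (0.03 and 0.18). In the zinc list as a whole 4 of 20 were higher at High than at Medium and 2 lower, and 2 were higher with only the groups compared or without High replicate 3. SLC30A10, a manganese exporter, changed by -0.54 and SLC39A5, a zinc importer, by -0.41. Metallothionein copies are nearly identical, so the division of reads among them is uncertain. That MT2A differed from MT1 genes in its last step was not tested as a difference between genes.

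**Figure D5:**
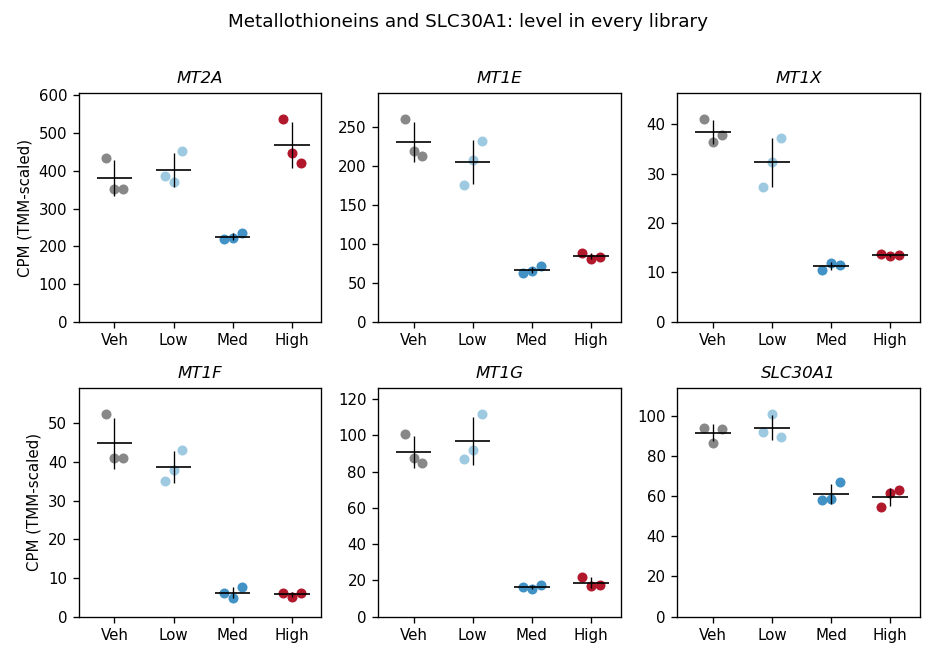
Level in CPM of 5 metallothionein genes and SLC30A1 in each of the 3 libraries of vehicle, Low, Medium and High (dots), with the group mean (horizontal line) and SD (vertical line). All 6 fell from Low to Medium, and MT2A alone among them overlapped Low at High, with 420 to 538 CPM.

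The promoters of MT2A and MT1X were set side by side because MT2A was called higher from Medium to High and MT1X was not. MT1X also rose at that step without overlap, by a smaller change. Capitals mark the 7-letter cores of the metal response element, TGCACNC or TGCGCNC, on either strand, in the 250 bases before each RefSeq start (GRCh38.p14, chr16:56608334-56608583 and chr16:56682220-56682469, both plus strand).
MT2A: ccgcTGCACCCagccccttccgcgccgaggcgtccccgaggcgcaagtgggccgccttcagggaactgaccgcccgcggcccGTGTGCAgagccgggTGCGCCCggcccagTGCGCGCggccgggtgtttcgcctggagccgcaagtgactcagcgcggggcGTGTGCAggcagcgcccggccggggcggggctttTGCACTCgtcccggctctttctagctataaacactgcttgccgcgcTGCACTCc
MT1X: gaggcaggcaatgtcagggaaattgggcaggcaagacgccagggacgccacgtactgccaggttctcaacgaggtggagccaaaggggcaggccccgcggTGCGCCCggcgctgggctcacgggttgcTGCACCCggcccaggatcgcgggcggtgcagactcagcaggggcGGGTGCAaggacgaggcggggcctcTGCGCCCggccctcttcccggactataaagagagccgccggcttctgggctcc
The MT2A window held 7 cores and the MT1X window 4. Over all genes with an entry, 11.9% held TGCACNC and 19.7% held TGCGCNC.

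The same step was compared with that of 2 other extracts, whose High and Medium libraries are not those of Poria. In Atractylodis the step from Medium to High called 100 genes higher (0.614%) and 87 lower (0.534%), and in Glycyrrhiza 4630 higher (28.4%) and 4464 lower (27.4%). The difference between the Poria step and the Atractylodis step was tested itself, and it was above 0 for 355 genes (2.18%) and below 0 for 153 (0.940%). With only the groups compared in the fit these counts were 111 and 39. Against Glycyrrhiza the difference was above 0 for 3586 genes (22.0%) and below 0 for 3329 (20.4%).

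Part of the immediate early list differed between Poria and Atractylodis by those tests. No member of that list was called in Atractylodis with edgeR or DESeq2 (3 at an unadjusted p under 0.05), and the Poria step exceeded the Atractylodis step for 7 of 20 members and fell short for none. For EGR1 the step was 1.34 in Poria and 0.24 in Atractylodis, a difference of 1.10 (adjusted p = 2.77e-05). HAMP, with a step of -1.73 in Poria and 0.07 in Atractylodis, also differed (adjusted p = 0.000201), as did MT2A, with 1.06 and -0.33 (adjusted p = 2.83e-06). For 10 of 35 mitosis genes the Poria step lay below that of Atractylodis. NRF2 targets were called in both extracts, 24 and 21 of 31 higher, and the difference was above 0 for 6 and below 0 for 1. AKR1B10 rose by 1.12 in Poria and 1.20 in Atractylodis, and the difference between these did not pass (-0.07, adjusted p = 0.813). CYP1A1 rose by 1.13 and 1.01 (difference 0.12, adjusted p = 0.825).

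Against Glycyrrhiza, a more drastic step, the mitosis genes fell less in Poria, with all 35 lower in Glycyrrhiza (median -1.35) and a difference above 0 for 33 of 35. Proteasome subunits went apart: 11 of 31 were higher in Poria, 21 of 31 were lower in Glycyrrhiza, and the difference was above 0 for 24. In the integrated stress response list 22 of 23 were higher in Glycyrrhiza, and the difference was below 0 for 22. For the immediate early list the difference was above 0 for 7 of 20 and below 0 for 6, beside 22.0% and 20.4% over all genes tested. In Glycyrrhiza itself 9 of the 20 were higher and 3 lower, beside 28.4% and 27.4%. EGR1 rose by 0.97 there, and its difference of 0.37 did not pass (95% interval 0.05 to 0.69, adjusted p = 0.056). MT2A rose by 1.33, and its difference of -0.28 did not pass either (95% interval -0.64 to 0.09, adjusted p = 0.232). ID1 (-0.83) and TMPRSS6 (-0.63) fell in Glycyrrhiza too, where HAMP rose by 1.58. Their differences from Poria did not pass (adjusted p = 0.309 and 0.799). AKR1C2 rose by 0.74 in Poria, 1.07 in Atractylodis and 1.14 in Glycyrrhiza. Poria fell short of both by test (adjusted p = 0.01 and 4.26e-05).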

How the data were processed

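RNA was sequenced from HepG2 cultures, and the table the authors deposited holds RSEM expected counts per gene. Per the submitters' processing notes, FastQC 0.11.9, Trim Galore 0.6.5, STAR 2.7.3a and RSEM 1.3.3 were used with GRCh38. The annotation release and strand setting are not given in the sources used here. Of the nonzero values 23.4% were not whole (tolerance 0.005), and all were rounded. The table has 210 further columns that were not used. Symbols matched 56558 of 60675 genes, and positions are those of GENCODE 29.

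All 54 libraries of the 19 groups with replicates were fitted together with edgeR 4.0.16 (limma 3.58.1, R 4.3.3) by quasi-likelihood after filterByExpr and TMM scaling, which left 16284 genes, with Benjamini-Hochberg adjustment at 0.05. The coefficient of variation between replicates was 5.63%. Alternatives were RLE scaling, no filter, only the groups compared, a replicate block, no mitochondrially encoded genes, each Poria library left out in turn, other limits in the pattern definitions, and DESeq2 1.42.0. The block of Poria High and Medium only, the 9 Poria libraries alone and the definition without an interval were added after seeing the data. Replicate libraries differed by more than counting noise (chi-square per degree of freedom 7.31 to 20.4). The labels share replicate numbers 1 to 3. Deviations of same-numbered High and Medium libraries from their group means correlated at 0.36, 0.218 and 0.404 over 10806 genes. The replicate block alternatives therefore took the numbers to pair these doses, a pairing that comes from the data and not from a label. The fit behind the other p-values held no block and ignored this pairing.

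Named genes were the 12 largest called changes in each direction at 2 CPM or more without overlap, up to 8 genes per pattern and direction, up to 4 called members of each of 48 lists with the largest change, and the 6 genes in each direction that moved oppositely in Glycyrrhiza. Some genes that meet this rule are not reported here. Other list members are named for their role, and ZNF322P1, FUT1 and the remaining pattern genes because their counts were small. The comparison, its lists and its named roles were chosen with earlier results of these data known. Promoter windows come from the RefSeq table of GRCh38.p14.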

Additional observations from a re-analysis of the deposited data

Results flagged for a closer look

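The step from Medium to High was tested against the same step in 2 other extracts, and the difference itself passed the test for many genes. It was above 0 against Atractylodis for 355 genes and below 0 for 153. Against Glycyrrhiza it was above 0 for 3586 and below 0 for 3329. Over all genes tested, the Poria step called 8.37% higher and 6.20% lower, and the Glycyrrhiza step 28.4% and 27.4%. In 517 genes the steps in Poria and Glycyrrhiza were both called and of opposite sign, and the difference was called too. These genes had a symbol and a mean of at least 2 CPM at Poria High or Medium. Whether 517 is more than those shares alone would give was not tested.

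Among those 517 genes, the Poria step exceeded the Glycyrrhiza step most in PPP2R2C, a phosphatase subunit, by 3.31 on the log2 scale (0.48 in Poria and -2.83 in Glycyrrhiza). HAVCR1, a cell surface receptor, differed by 3.13 (0.95 and -2.17), CLDN2, a tight junction protein, by 3.05 (0.42 and -2.63) and TAGLN, an actin-binding protein, by 2.96 (0.30 and -2.65). EGLN3 differed by 2.58 (1.21 and -1.37) and C1orf116 by 2.55 (0.45 and -2.10). The Poria step itself lost its call when 1 library was left out in PPP2R2C (High replicate 2 or 3, or Medium replicate 1), HAVCR1 (High replicate 2 or Medium replicate 1), TAGLN (High replicate 1 or 2, or Medium replicate 3) and C1orf116 (High replicate 1 or 2, or Medium replicate 1 or 2). Their adjusted p-values then ran from 0.057 in TAGLN to 0.193 in PPP2R2C. Each of these genes also lost the call with only the groups compared (adjusted p from 0.0539 in TAGLN to 0.0931 in PPP2R2C). The same held with the 9 Poria libraries alone (0.0674 in TAGLN to 0.115 in PPP2R2C). In PPP2R2C, HAVCR1 and EGLN3 the Poria doses overlapped.

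In the other direction NUPR1 differed by -3.71 (-0.78 in Poria and 2.93 in Glycyrrhiza). G6PC1, the enzyme that releases glucose, differed by -3.35 (-0.56 and 2.79), HAMP by -3.31 (-1.73 and 1.58) and INHBE, a hepatokine subunit, by -3.13 (-0.47 and 2.66). ALDH1L2 differed by -2.89 (-0.42 and 2.47) and ASNS by -2.38 (-0.29 and 2.09). The Poria step of G6PC1 lost its call without High replicate 1 (adjusted p = 0.0998) or Medium replicate 3 (0.0682). That of ALDH1L2 lost its call with the 9 Poria libraries alone (adjusted p = 0.0504).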

How the results depend on the processing

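With only the groups compared, 692 genes were higher and 495 lower from Medium to High, and 111 and 39 differed from Atractylodis. With the 9 Poria libraries alone the first counts were 522 and 374. The step from Low to Medium was refitted on those 9 libraries, not on its own 6, and gave 538 higher and 435 lower. The small pattern counts moved most. Higher at the top dose only, 3 genes, became 5 with no filter, 1 with DESeq2, 1 with a size minimum of 1, 11 with an interval of 0.5, 70 with none, and 1 to 5 with 1 library left out. Lower at the top dose only, 5 genes, became 3 with only the groups compared, 3 with the 9 libraries, 1 with the replicate block of High and Medium, 0 with a size minimum of 1, 21 with an interval of 0.5, 85 with none, and 3 to 7 with 1 library left out. Up and back down, 5 genes, became 20 with no filter, 3 with only the groups compared, 1 with the 9 libraries, 2 with DESeq2, 12 with no size minimum, and 3 to 6 with 1 library left out. Down and back up, 4 genes, became 21 with no filter, 2 with DESeq2, 19 with no size minimum, and 3 to 7 with 1 library left out. The cause was not tested. With the replicate block over all sets, 1499 genes were higher and 1119 lower from Medium to High. That block ended the calls of ZNF322P1 (adjusted p = 0.0648) and of 3 genes named by the rule, BGN (adjusted p = 0.0579), ACOT2 (0.0612) and TAT (0.0549), and the block of High and Medium alone ended those of ACOT2 (0.0506), TAT (0.0522), PROZ (0.0531) and RARS1 (0.0507). No named gene reversed, and 118 of 176 stayed past the threshold with 1 sign in every setting. At these depths, genes under 1 CPM rest on few counts.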
